A study of Homo sapiens with 3 samples.

Results

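The m6A regions described here each lie on top of another m6A region assigned to the opposite strand, at places spread over the autosomes. They were chosen by position alone, from the deposited list of 41836 regions in hg19: an autosomal region was taken when it shared at least 1 nt with a region of the other strand, unless its midpoint fell in 1 of 8 bins of 1 Mb. This gave 268 regions (0.641% of the list), 133 on the plus and 135 on the minus strand, which formed 135 overlapping pairs at 133 places, called loci below. The bins left out were those where such pairs crowd together, with 5 to 28 pairs each and 72 pairs in all, on chromosomes 2, 4, 6, 7, 8, 10 and 18. They were picked by their number of pairs, and no annotation of repeats was used, so whether the loci kept here lie in repeats was not checked.

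The cells were MDA-MB-231, a long-established line from a human breast cancer, grown in DMEM-based medium with serum, glutamine, pyruvate and antibiotics, with no treatment named in the labels. Nuclear lysates were immunoprecipitated with a rabbit anti-m6A antibody for 2 libraries and with rabbit IgG, the control, for 1, and sequencing libraries were prepared with a ScriptSeq kit. All 3 are of nuclear RNA from this line, and the labels do not say whether both m6A libraries came from separate cultures. The list holds no value for any single library and a score of 1 for every region, so read depth, enrichment over IgG and replicate error are unknown for each locus below. Intervals given here are exact 95% binomial intervals, or order-statistic intervals for medians, and cover counting error only. Regions are not replicates, and no test was made of any difference below.

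N6-methyladenosine (m6A) is a methyl mark that the METTL3 and METTL14 complex places on adenosines of RNA while it is being made, so nuclear RNA carries it on introns and noncoding transcripts as well as on exons. A strand-keeping library tells which DNA strand a captured RNA was copied from, and 1 stretch of genome can be transcribed in both directions. Genes that point at each other can run past their ends into one another (convergent transcripts), neighbouring genes that point apart can share their start (divergent transcripts), and an antisense RNA can be made within another gene. The strand, gene and sequence at each locus would be needed to say which of these applies, if any does. No gene name is given here, because the gene annotation used is in GRCh38 and no position was moved between builds. What can be measured is how the regions of a pair fit together and on which strand and side the next m6A regions lie.

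In most pairs the overlap took up much of the shorter region. The median overlap was 34 nt (interval of the median, 31 to 36 nt); the middle 50% of pairs shared 23 to 41.5 nt, and the extremes were 2 and 112 nt. In 70 of 135 pairs (51.9%, interval 43.1 to 60.5%) the shorter region lay wholly inside the longer. In 120 pairs (88.9%) at least 50% of the shorter region was covered. Of the longer region the overlap covered a median of 59.6%, and at least 80% in 29 pairs. Pairs were taken for their overlap, so close centres follow in part from the rule. The centres were a median of 10.5 nt apart, within 20 nt in 96 pairs and more than 100 nt apart in 5. The fit was not exact: no pair had the same start and end on both strands, 5 shared the same leftmost position and none the same rightmost position. Within 5 nt, 39 pairs agreed at the left end and 35 at the right.

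The overlaps formed a narrow peak when opposite-strand regions were counted by the distance between their centres. Outside the 8 bins, 121 opposite-strand pairs had centres less than 50 nt apart, of which 115 overlapped. Between 50 and 100 nt there were 33. From 100 to 2000 nt the count per 50 nt stayed between 18 and 37, with a mean of 25.3. The innermost step therefore held 4.77 times the mean of the steps beyond 100 nt. In steps of 10 nt the first 3 counts were 67, 29 and 9. The peak was symmetrical, with 60 pairs whose minus-strand centre lay to the right of the plus-strand centre and 60 whose lay to the left.

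**Figure D1:**
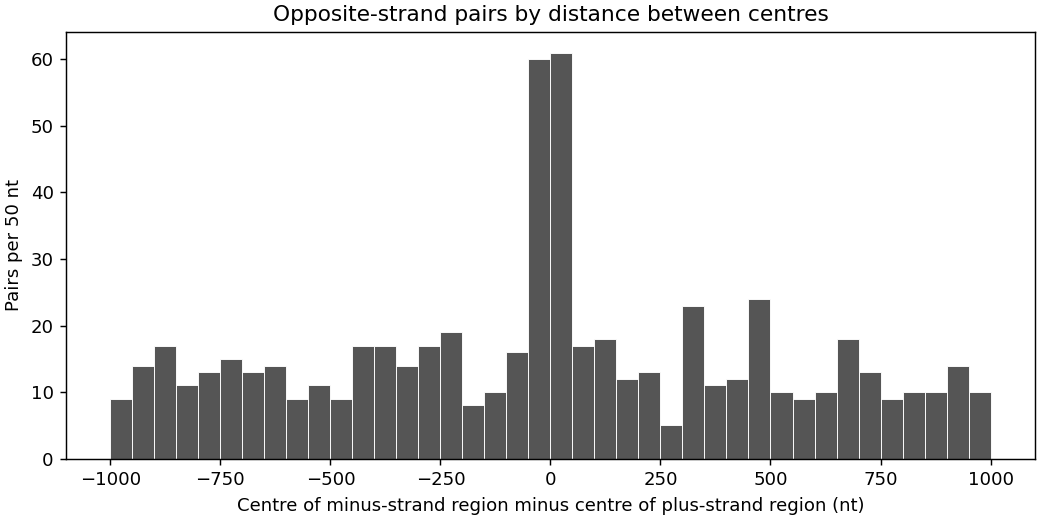
Number of opposite-strand pairs of m6A regions outside the 8 bins per 50 nt (vertical axis) against the centre of the minus-strand region less that of the plus-strand region in nt (horizontal axis). The innermost bars, of 60 and 61 pairs, stand above all others, which hold 5 to 24.

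The threshold of 1 nt had little bearing on which pairs were taken, since 127 of the 135 pairs shared at least 10 nt. The 3 smallest overlaps were of 2 nt each, at chr1:24995763-24995837, chr6:31606852-31607005 and chr17:1268195-1268334. No pair of regions touched end to end. The nearest pairs outside the rule had gaps of 5 nt (plus strand from 121355760 to 121355791 and minus strand from 121355708 to 121355754 on chromosome 1), 6 nt (plus strand from 10327955 to 10327993 on chromosome 11) and 6 nt (plus strand from 12781031 to 12781062 on chromosome 19). Gaps of up to 10 nt numbered 6 and overlaps of up to 10 nt numbered 9.

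The deposited strand was taken as the strand of the RNA, and whether it is wrong for some regions was not checked. If it were the reverse throughout, tail to tail and head to head, and convergent and divergent, would exchange names in all that follows. Pairs that overlapped at their downstream ends were about as many as those that overlapped at their upstream ends. Of the 65 pairs in which neither region held the other, 34 met tail to tail, with the downstream end of each region inside the other, and 31 met head to head (52.3% tail to tail, interval 39.5 to 64.9%). Tail-to-tail pairs shared a median of 35 nt and head-to-head pairs 23 nt. In the other 70 pairs a plus-strand region lay inside a minus-strand region 39 times and the reverse held 31 times. The minus-strand region was the wider in 69 pairs, the plus-strand region in 63, and both were equal in 3.

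The overlapping regions had widths close to those of the rest of the list. Their median was 46 nt (interval 44 to 48 nt; quartiles 37 and 58 nt; range 19 to 596 nt), against 45 nt (quartiles 32 and 53 nt) for the other 39351 autosomal regions outside the bins. Regions of at most 30 nt made up 16.0% of them and 21.9% of the others, and regions over 100 nt 13.4% and 10.2%. A wide region meets another more easily, so these shares are a description of what the rule takes. In the left-out bins the overlapping regions were wider, with a median of 52 nt, and 23.2% exceeded 100 nt. Strand was nearly even by construction, since each pair has a region on either strand: 50.4% of the overlapping regions were on the minus strand, against 57.3% of the others. A width of exactly 49 nt was held by 7.41% of the overlapping minus-strand regions (10 of 135) and 11.6% of the other minus-strand regions.

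The 5 widest regions among them were those at chr4:190156036-190156631 (minus strand, 596 nt), chr2:234371906-234372296 (plus, 391 nt), chr13:114554263-114554646 (minus, 384 nt), chr3:47451929-47452251 (plus, 323 nt) and chr13:109921714-109922026 (plus, 313 nt). Each of these faced a much shorter region. The longest overlap, of 112 nt, was on chromosome 12, where a plus-strand region from 112704978 to 112705089 lay inside a minus-strand region from 112704973 to 112705096. On chromosome 7 a plus-strand region from 107410618 to 107410704 lay inside a minus-strand region from 107410603 to 107410709 and shared 87 nt. On chromosome 2 the wide plus-strand region and a minus-strand region from 234372196 to 234372325 shared 101 nt. The other pairs among the 10 longest overlaps shared 61 to 72 nt: on chromosome 19 the plus-strand region from 4036565 to 4036791 (72 nt), on chromosome 21 that from 9699012 to 9699088 (71 nt), on chromosome 6 that from 160521762 to 160521826 (65 nt), on chromosome 12 that from 66451384 to 66451448 (65 nt), on chromosome 9 that from 69710965 to 69711214 (62 nt), on chromosome 10 that from 131955737 to 131955803 (62 nt) and on chromosome 11 that from 585246 to 585446 (61 nt). Neither this length nor the width of the widest regions has an error estimate.

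Only 2 loci held 3 regions, and both had 1 long plus-strand region over 2 short minus-strand regions. At chr2:234371906-234372325 the plus-strand region of 391 nt faced minus-strand regions of 20 and 130 nt. At chr9:69710961-69711214 the plus-strand region of 250 nt faced minus-strand regions of 24 and 62 nt. The other 131 loci held 1 region of each strand.

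The loci were spread over all 22 autosomes. Chromosomes 2, 8 and 11 had the most pairs, 12 each, and chromosome 21 had 1. As a share of the regions of a chromosome outside the bins, overlapping regions averaged 0.725% ± 0.320 (SD, n = 22 autosomes). The lowest share was 0.329% on chromosome 6 (8 regions; interval 0.142 to 0.648%) and the highest 1.52% on chromosome 13 (12 regions; interval 0.786 to 2.64%). Chromosome 8 had 1.26% (24 regions; interval 0.810 to 1.87%). The intervals of chromosomes 1 and 6 lay below those of chromosomes 8, 11 and 13. Overlapping regions come at least as pairs, so these intervals are too narrow.

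Of the 44 loci on the 7 chromosomes that have a left-out bin, 1 lay within 1 Mb of it (2.27%), at chr18:19318776-19318821. Within 5 Mb lay 6 (13.6%, interval 5.17 to 27.4%). Of the 13364 other regions outside the bins on these chromosomes, 0.853% lay within 1 Mb and 6.49% within 5 Mb. Those of the 6 loci on chromosome 8 all lay between 43793847 and 43834492, so the interval is too narrow. Closeness to long empty stretches was measured only for the widest region-free stretch of each chromosome, so loci beside other long stretches were not counted. Of the 133 loci, 10 (7.52%, interval 3.66 to 13.4%) lay within 1 Mb of the widest region-free stretch of their chromosome, against 2.17% of the other autosomal regions. Of these 10, 3 were on chromosome 17 and 3 on chromosome 19. Some of them lay within 10 kb of each other, so the interval is too narrow, and loci were set against single regions.

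The next m6A regions around each locus were then counted within 10 kb to either side, on both strands. A locus was called convergent when plus-strand neighbours were more numerous to its left and minus-strand neighbours to its right, and divergent in the reverse case. Of the 133 loci, 54 had no neighbour on either strand (40.6%, interval 32.2 to 49.5%), 43 had neighbours of a single strand (32.3%, 24.5 to 41.0%), 9 were convergent (6.77%, 3.14 to 12.5%), 6 were divergent (4.51%, 1.67 to 9.56%), and 21 had neighbours of both strands in another arrangement (15.8%, 10.0 to 23.1%). The convergent and divergent shares have overlapping intervals.

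**Figure D2:**
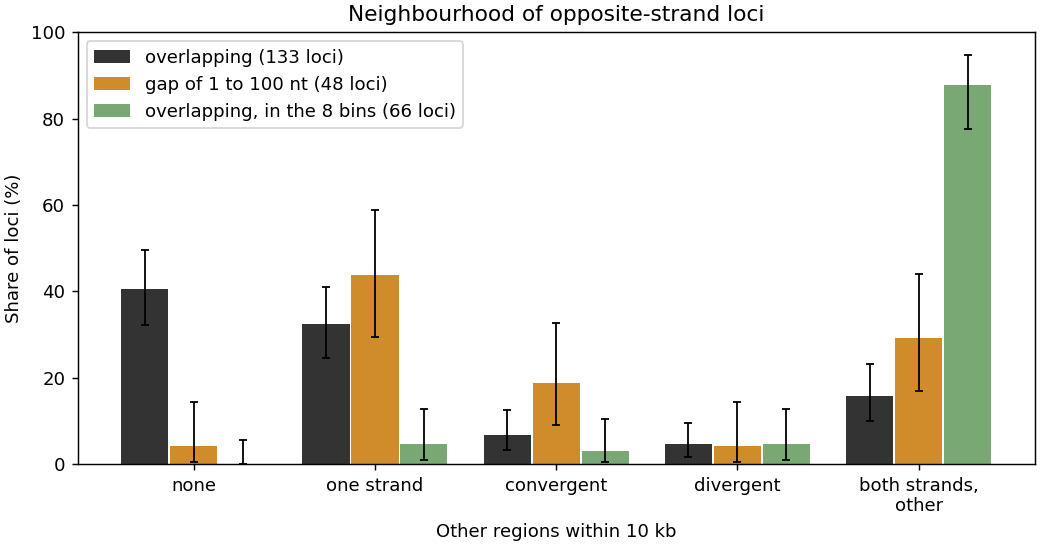
Share of loci in percent (vertical axis) by the strand and side of the other m6A regions within 10 kb (horizontal axis), for the 133 overlapping loci, the 48 loci whose opposite-strand regions are 1 to 100 nt apart and the 66 overlapping loci of the 8 bins; bars are shares and lines are exact 95% binomial intervals. Loci without neighbours make up 40.6% of the first set, 4.17% of the second and none of the third. The bins were picked for their many pairs, so neighbours in the third set follow largely from that choice.

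Loci that just missed an overlap lacked neighbours less often, by an amount that depended on how a near miss was defined. Opposite-strand regions 1 to 100 nt apart, neither of them among the overlapping regions, formed 48 loci. Of these, 2 had no neighbour within 10 kb (4.17%, interval 0.509 to 14.3%), 21 had neighbours of a single strand (43.8%), 9 were convergent (18.8%, 8.95 to 32.6%), 2 were divergent and 14 had another arrangement of both strands. With gaps of up to 1000 nt there were 207 such loci, of which 34 had no neighbour (16.4%, interval 11.7 to 22.2%) and 19 were convergent (9.18%, 5.62 to 14.0%). In the left-out bins, 58 of 66 overlapping loci (87.9%) had both strands in another arrangement. Of the 66, 0 lacked neighbours. That allows a share of up to 4.55% by the limit of 3 counts of the total, and up to 5.44% by the exact interval. The bins were picked for their many pairs, so neighbours on both strands follow largely from that choice. Between the overlapping loci and the near misses, the share without neighbours was the one with intervals that did not overlap, 40.6 against 4.17% or, for gaps of up to 1000 nt, 16.4%.

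Seen per region, 153 of the 268 overlapping regions (57.1%, interval 50.9 to 63.1%) had no other region of their own strand within 10 kb, against 21.7% of the other autosomal regions outside the bins. Of the overlapping regions, 116 (43.3%) had a further region of the opposite strand within 10 kb besides their partner, against 9.51% of the others. With neither strand nearby there were 109 (40.7%), against 20%. Both regions of a pair share these surroundings, so the intervals treat linked regions as separate and are too narrow.

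The regions of the 54 loci without neighbours lay closely over each other. These loci lay on 20 of the 22 autosomes, and the nearest other region was a median of 142 kb away. Their centres were a median of 5.5 nt apart, and 51 of their 55 pairs (92.7%) had centres within 20 nt. The same held for 29 of 44 pairs (65.9%) where a single strand had neighbours and for 7 of 21 (33.3%) where both strands had neighbours in another arrangement. It also held for 5 of 9 convergent pairs (55.6%) and 4 of 6 divergent pairs (66.7%). The median overlap was 31.5 to 35 nt in every arrangement. The widths of an overlapping pair limit the distance between its centres, and wide regions were rarer without neighbours, as given below. The 109 regions of the loci without neighbours had a median width of 44 nt (quartiles 36 and 52 nt), against 42 nt (30 and 49 nt) for the 7885 other regions without neighbours. Regions of at most 30 nt made up 13.8% of the 109 and 25.5% of those others, and regions over 100 nt made up 3.67% (4 regions) and 4.41%. Among the 159 overlapping regions with neighbours 20.1% exceeded 100 nt, and among other regions with neighbours 11.6%. Within 50 kb, 38 of the 54 loci still had no neighbour, 15 had neighbours of a single strand and 1 had both.

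Examples of such loci are chr1:192765007-192765055, where a plus-strand region of 45 nt lay inside a minus-strand region of 49 nt with the same centre, and chr16:58850295-58850341, where regions of 43 and 47 nt had centres 1 nt apart. At chr2:187056211-187056258 regions of 46 and 42 nt shared 40 nt. These 3 were picked after their values were seen, and their overlaps are longer and their centres closer than the medians of the group, 34 and 5.5 nt. The pairs with centres over 50 nt apart were at the 3-region locus on chromosome 9 (117 nt for its outer pair) and chr1:149224088-149224335, where a minus-strand region of 47 nt lay 86.5 nt off the centre of a plus-strand region of 248 nt.

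The peak of coinciding centres was most marked for such lone pairs. Among opposite-strand pairs with no other region within 10 kb, 53 had centres less than 50 nt apart and 40 had centres 100 to 2000 nt apart, or 1.05 per 50 nt. Among pairs with other regions within 10 kb, 68 had centres less than 50 nt apart and 949 had centres 100 to 2000 nt apart, or 24.97 per 50 nt. Of the 96 lone pairs with centres less than 2000 nt apart, 53 thus fell in the innermost 50 nt.

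**Figure D3:**
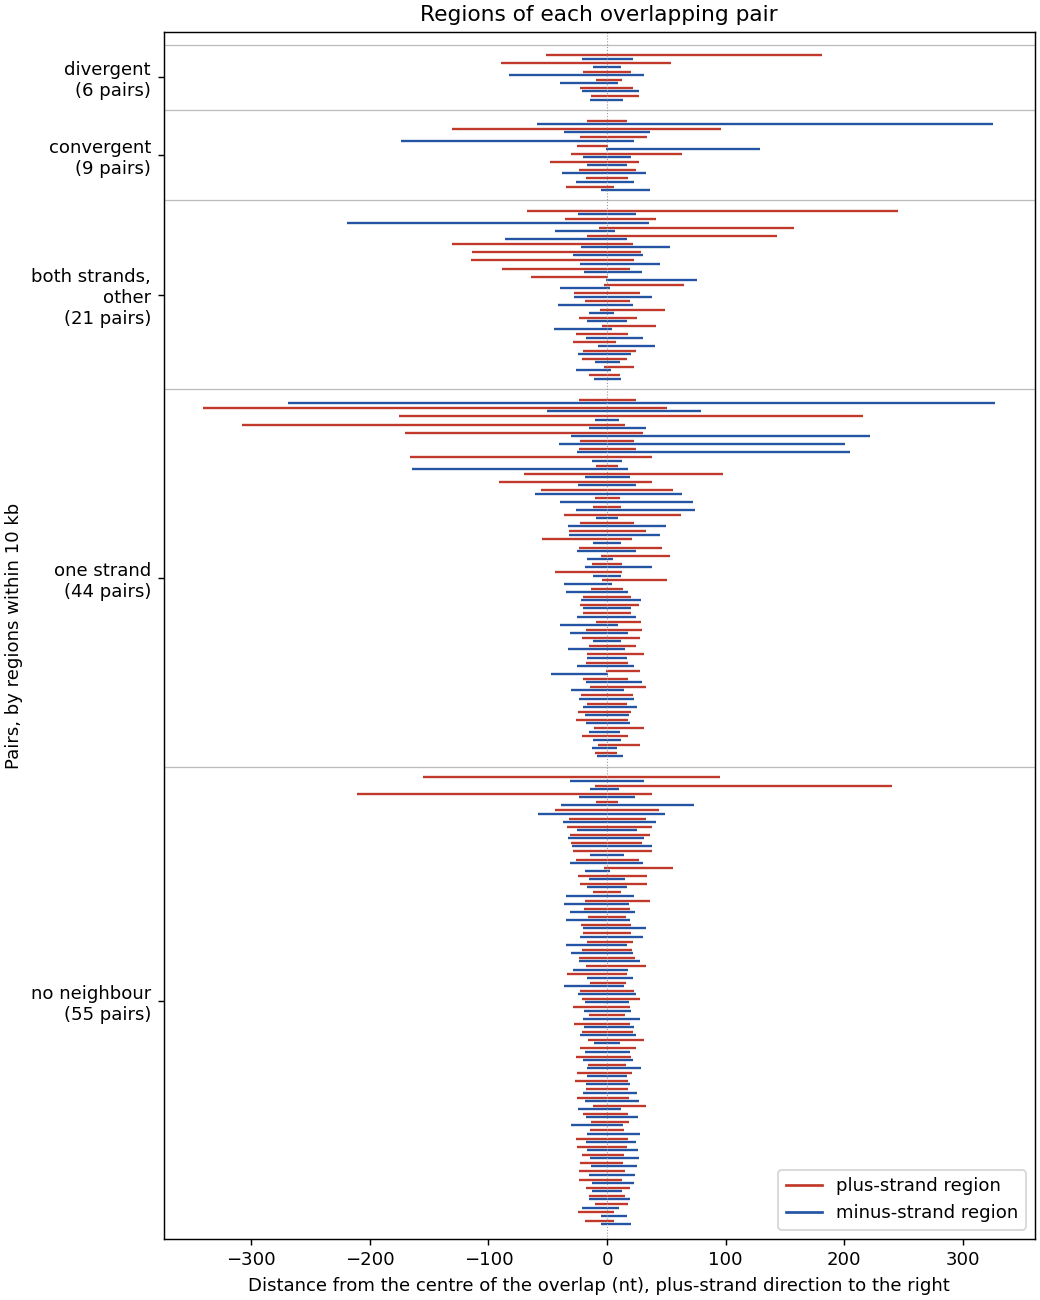
Plus-strand (red) and minus-strand (blue) regions of the 135 overlapping pairs, drawn to scale in nt from the centre of their overlap (horizontal axis) and grouped by the regions within 10 kb (vertical axis, with narrow pairs at the bottom of each group). Most of the 55 pairs without neighbours are narrow and have centres within 20 nt of each other. Long regions that reach past 1 end of a short partner are more frequent in the groups with neighbours.

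At 43 loci the neighbours within 10 kb were of a single strand, so that the other strand held no m6A region there beyond the locus itself. It held 1 region within the locus at 42 of them and 2 at the 3-region locus on chromosome 2. The strand with neighbours was plus at 22 and minus at 21 of them. The region on that strand was the wider in 32 of 44 pairs, with a median of 53.5 nt against 42.5 nt for the region facing it. Among the other autosomal regions outside the bins, those with neighbours were also wider, with a median of 46 nt against 42 nt without. The facing region lay wholly inside the region on the strand with neighbours in 21 pairs and held it in 7. The neighbours numbered 2 at the median and 12 at most, and 15 loci had only 1. They lay on both sides of the locus in 15 cases, only upstream on their strand in 13 and only downstream in 15.

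At the 6 of these loci named for the most neighbours, 1 region faced a strand with 6 to 12 neighbours. At chr14:21679216-21679445 a plus-strand region of 48 nt lay inside a minus-strand region of 230 nt, with 9 minus-strand regions to the left and 3 to the right within 10 kb and no plus-strand region closer than 218876 nt. At chr5:179263581-179263748 a minus-strand region of 38 nt lay inside a plus-strand region of 168 nt, with 8 plus-strand regions to the left and 2 to the right. Within 50 kb that locus had 8 minus-strand regions to its right and 2 to its left, and 15 plus-strand regions to its left and 2 to its right, which made it convergent at that distance. At chr6:32156836-32157076 a plus-strand region of 45 nt lay inside a minus-strand region of 241 nt, between 7 and 3 minus-strand regions. At chr4:1874277-1874300 regions of 19 and 22 nt met tail to tail, with 1 plus-strand region to the left and 7 to the right. At chr13:114747348-114747430 all 7 minus-strand neighbours were to the right, and at chr2:89879105-89879160 there were 5 plus-strand neighbours to the left and 1 to the right. The locus at chr8:141710998-141711109 also had 6 neighbours, 5 to the left and 1 to the right on the minus strand, and the tie was settled by chromosome order. Within 50 kb the loci on chromosomes 14 and 13 kept neighbours of a single strand, that on chromosome 4 became divergent, and those on chromosomes 6 and 2 had both strands in another arrangement. Of all 43 loci, 27 kept a single strand within 50 kb, 5 became convergent, 4 divergent and 7 had another arrangement.

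Of the convergent loci with no neighbour on the other side within 10 kb, chr6:31606852-31607005 had the most neighbours. A plus-strand region of 26 nt and a minus-strand region of 130 nt met tail to tail there over 2 nt, with 8 plus-strand and no minus-strand regions to the left and 5 minus-strand and no plus-strand regions to the right. At chr10:75559822-75559896 the left held 3 plus-strand regions and the right 4 minus-strand regions, and at chr19:4036565-4036791 they held 2 and 5, with none on the other side in either case. These loci stayed convergent within 50 kb. The chromosome 10 locus then had 11 plus-strand regions to its left and 8 minus-strand regions to its right. The chromosome 6 locus had 18 plus-strand regions to its left and 4 to its right, and 1 minus-strand region to its left and 10 to its right, so both strands had regions on the other side as well. At chr2:86371638-86371686 the counts were 3 and 1 plus-strand regions to the left and right and 1 and 3 minus-strand regions, and within 50 kb 10 and 1 against 3 and 12. At chr13:114554263-114554646 1 plus-strand region was to the left, with 2 minus-strand regions to the left and 5 to the right. Within 50 kb the minus strand had 8 to the left and 7 to the right, and this locus was no longer convergent.

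The convergent locus with the most neighbours, chr16:2815646-2815738, was less ordered. The plus strand had 16 regions to the left and 10 to the right, and the minus strand had 1 and 2. Within 2 kb this locus was divergent. Of the 9 convergent loci, 5 had no neighbour at all on the other side, and of the 6 divergent loci 2. By the shape of the pair itself, the convergent loci held 2 tail-to-tail, 1 head-to-head and 6 nested pairs, and the divergent loci 1, 2 and 3. Within 50 kb 13 loci were convergent (9.77%, interval 5.31 to 16.1%) and 7 divergent (5.26%, 2.14 to 10.5%). Within 2 kb the order was the reverse, with 3 convergent (2.26%, 0.468 to 6.45%) and 7 divergent loci (5.26%, 2.14 to 10.5%), and at each of the 3 distances the intervals of both arrangements overlapped. The calls of single loci changed with the distance. Of the 9 loci convergent within 10 kb, 7 stayed so within 50 kb and 1 within 2 kb, where 7 had neighbours of a single strand and 1 was divergent. Of the 6 divergent loci, 3 stayed so within 50 kb and 5 within 2 kb.

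The 6 divergent loci had 3 to 27 neighbours. At chr5:99385705-99385756, a head-to-head pair that shared 19 nt, 3 plus-strand regions lay to the right and 1 minus-strand region to the left, with the nearest 218 and 1361 nt away. At chr19:24184490-24184603 the plus strand had 1 region to the left and 2 to the right and the minus strand 1 to the left. At chr8:43793847-43793887 the right held 2 plus-strand regions and the left 1 minus-strand region. Within 50 kb that locus had 19 plus-strand and 7 minus-strand regions to its right and 1 of each to its left, and was no longer divergent. At chr11:65196785-65197017 a minus-strand region of 43 nt lay inside a plus-strand region of 233 nt, with 7 plus-strand regions to the left and 16 to the right, and 3 and 1 on the minus strand. At chr2:133028538-133028586 the plus strand had 3 regions to the left and 4 to the right and the minus strand 4 and 1, and chr8:98735128-98735270 had 5 neighbours in all. Both lay within 10 kb of a further overlapping locus, and neither was divergent within 50 kb.

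**Figure D4:**
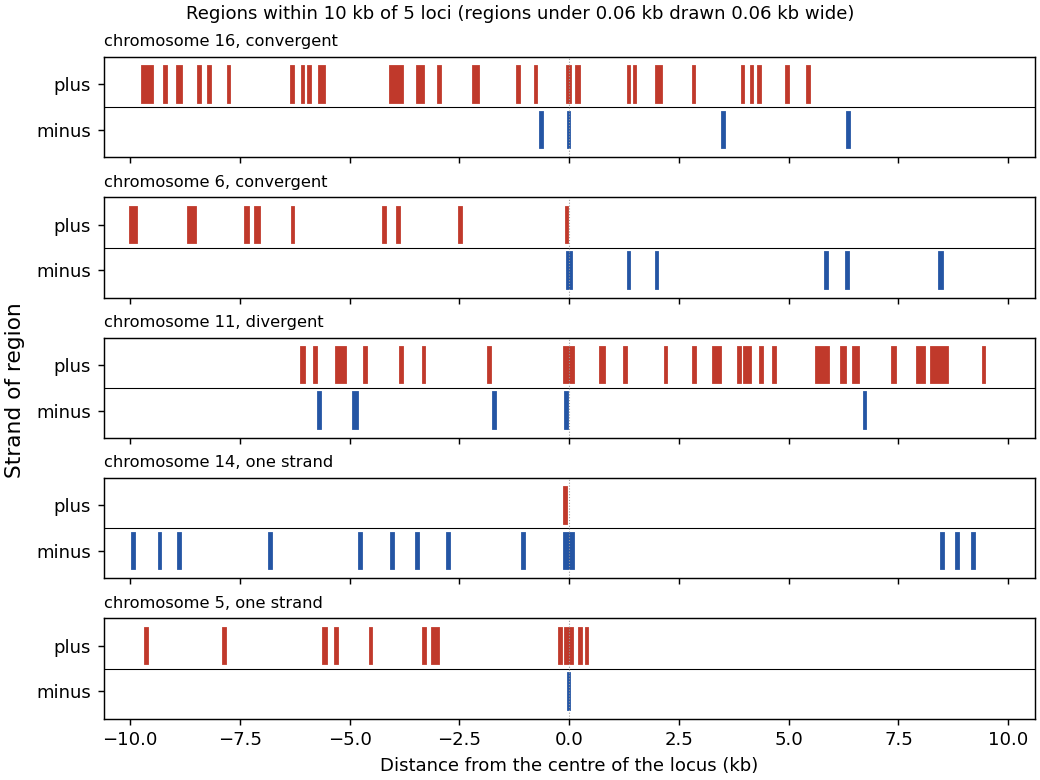
All m6A regions on the plus strand (red, above) and the minus strand (blue, below) within 10 kb of 5 loci, against distance from the centre of the locus in kb (horizontal axis). On chromosome 6 the 8 plus-strand neighbours lie to the left and the 5 minus-strand neighbours to the right, while on chromosomes 14 and 5 a single region faces 12 and 10 neighbours of the other strand.

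A further overlapping locus within 10 kb brings neighbours of both strands, usually on the same side, so loci that lie close together fall largely by definition among those with both strands in another arrangement. Of these 21 loci, 15 had the neighbours of both strands mainly on the same side, and 15 belonged to 8 groups of overlapping loci no more than 10 kb apart. The 8 groups held 17 loci. The group with most loci had 3, at chr13:109920535-109922026. The others had 2 each, at chr2:133024331-133028586, chr8:43828834-43834492, chr8:98725915-98735270, chr11:51586836-51589100, chr17:1258412-1268334, chr17:22259938-22261325 and chr19:27732131-27739499. The second chromosome 17 group ended 248 nt short of the widest region-free stretch of its chromosome (3.002 Mb), and the chromosome 19 group began 117 nt after the first position beyond such a stretch (3.46 Mb). Other stretches were not measured. At chr8:43834430-43834492 the next minus-strand region to the right was 3004679 nt away, and the next plus-strand region 1817 nt. At chr17:22259938-22260121 the left held 14 plus-strand and 4 minus-strand regions and the right 3 and 1. Outside the groups 6 loci of this kind were left.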

How the data were processed

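The analysis started from the deposited list of regions in BED format, with 6 columns for 41836 regions, 0 of them for a single library. Per the submitters' processing notes, reads were aligned with Bowtie2 to hg19. What is not given in the sources used here is the caller of the regions, its thresholds, what part IgG had in it, and how both m6A libraries were joined. The score as deposited is 1 throughout and was not used. Only the authors' region limits were measured values here, and how regions were merged affects widths and overlaps. The strand is the deposited one and was not checked against any gene.

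Printed positions are hg19, with the first base of a chromosome as 1 and both ends inside the region. Opposite-strand regions sharing 1 nt or more were paired, and pairs that share a region were joined into loci. Neighbours were all other regions of the list, the bins included, with a gap of at most 10 kb to the locus. Left and right refer to the plus strand. The rule, the bins, the near misses and the alternatives were chosen with earlier results of these data known. Loci were named by size: the 10 longest overlaps, the 5 widest regions, loci of 3 regions, and loci with most neighbours. The last were the 6 convergent, 6 divergent and 6 single-strand loci with most neighbours within 10 kb. No locus of another arrangement was named by its neighbours. The motif search and gene positions set out in the design were not run, since no hg19 sequence or annotation was used. The functions were tested on simulated data with planted pairs. Tools were scipy 1.17.1 and pandas 2.3.3 for the values, matplotlib 3.10.9 for the plots, and numpy 2.4.6, under Python 3.11.15.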

Additional observations from a re-analysis of the deposited data

How the results depend on the processing

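The 7 results were recomputed under 9 alternatives, where each applies, and 37 of 42 values stayed within 1.5 times the count or within the interval of the main value. Keeping the 8 bins raised the pairs from 135 to 207 and the regions from 268 to 406, and lowered the share of loci with neighbours on a single strand from 32.3 to 23.1%. Regions wider than 30 nt gave 97 pairs with a median overlap of 38 nt, by construction longer. Within 2 kb the convergent share was 2.26% (3 loci) and within 50 kb 9.77%, and the share of loci without neighbours was 58.6 and 28.6%. With no neighbour allowed on the wrong side the convergent share was 3.76% (5 loci). Counting each group of loci within 10 kb once, an alternative added after seeing the data, gave 7.26% convergent. No alternative with a stricter score, and none without 1 m6A library, could be run. No paired analysis was possible because no column belongs to a single library. The depth behind each region is unknown.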
